A study of Mus musculus with 48 samples.

Results

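The cadherins and non-clustered protocadherins are cell surface proteins with repeated extracellular cadherin domains. Members were the protein-coding genes whose symbol is Cdh or Pcdh plus a number (with an optional x), together with Celsr1 to Celsr3, Fat1 to Fat4, Dchs1, Dchs2 and Clstn1 to Clstn3. The rule found 46 of the 37620 genes in the deposited gene table and 785 of the 247845 exons in the exon table; Dchs2 was not matched and was not analysed here. The values that follow come from the shell of the nucleus accumbens of 48 HS-CC mice, an outbred heterogeneous stock bred from the Collaborative Cross founders, after 4 generations of selection for ethanol preference. The High line (selected for high preference) and the Low line each gave 12 females and 12 males, which makes 4 groups; every mouse had its own RNA-seq library of polyadenylated RNA from laser-microdissected tissue. Neither an ethanol treatment nor an age was given in the sources used here, all groups shared the stock and the tissue, and each line was 1 selected population, so that selection and drift cannot be told apart. Families and litters were not given, replicate numbers only name mice in order of listing, and each p-value rests on how far individual mice differ.

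Classical type I and type II cadherins join facing membranes in a calcium-dependent way, mostly to cadherins of their own kind, and are tied to the actin cytoskeleton through beta-catenin, p120-catenin and alpha-catenin. The delta protocadherins are weaker adhesion molecules that guide axons and sort synapses, the Celsr proteins are seven-pass receptors of the planar cell polarity pathway, and Fat and Dachsous are giant cadherins that bind each other across cell borders. The calsyntenins are cadherin-like proteins of the postsynaptic membrane and of axonal transport vesicles. In the striatum these families are known for the sorting and wiring of projection neurons and for synapse formation.

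Each library's gene column summed to between 13579559 and 14561911 normalised counts, and 19708 to 20888 genes lay above 0. All 12 medium spiny neuron markers were detected, with summed levels of 103797 to 157936 normalised counts. Xist matched the gender label in all 48 libraries. The library of High male replicate 1 had the lowest median correlation with the other libraries, 0.967, against a median of 0.976 over all libraries. The next lowest was 0.971, in Low male replicate 10. High male replicate 1 also had the lowest pooled last-exon share, 46.8% of the value of all multi-exon genes tested. The next lowest share was 49.2%, in Low female replicate 6, and the highest was 59.6%. The line, gender, interaction, spread and pair tests and the slopes on the last-exon share were repeated without High male replicate 1. Changes are given beside the results. In whole tissue, fewer cells of a type and less RNA per cell cannot be told apart.

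Of the 46 members, 39 passed the filter of at least 1 ppm (parts of the mean column total, 1 ppm being 14.1 normalised counts) in at least 12 libraries. The 7 that did not were Cdh1, Cdh3, Cdh16, Cdh17, Cdh26, Fat2 and Pcdh12. Their levels lay between 0.00117 and 0.0914 ppm per kb of merged exon. Cdh1, the epithelial E-cadherin, was above 0 in 8 libraries only. Of those that passed, Cdh23 reached 1 ppm in 18 libraries and Cdh6 in 31.

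Levels between genes were compared as ppm per kb of merged exon. The last listed exon held a median of 62.1% of the value of 37 members with 4 or more exons. Division by the whole length can therefore place long genes too low, so ranks between genes of unlike length are approximate. The calsyntenins led: Clstn1 had 169 ± 17.3 (SD, n = 48) ppm per kb and Clstn3 77.0 ± 9.73, while Clstn2 had 3.05 ± 0.392. Pcdh1 followed with 13.9 ± 1.99, Pcdh10 with 11.9 ± 1.85 and Celsr3 with 10.5 ± 4.42. Cdh22 (10.4 ± 1.53), Celsr2 (9.34 ± 1.67) and Pcdh8 (9.07 ± 1.58) came next, and from Pcdh10 to Pcdh8 neighbours in this order differed by less than 1 SD. Per kb of the longest transcript instead, several members had values over 1.5 times those per merged exon. Among them, Pcdh10, Pcdh1, Cdh13, Cdh8 and Cdh2 had 23.0, 22.6, 10.3, 8.22 and 7.91 ppm per kb. Cdh10 went from 2.39 to 6.38 (rank 21 to 13), Cdh7 from 3.42 to 6.94 (rank 19 to 12) and Pcdh15 from 1.57 to 4.11 (rank 25 to 20). Clstn1, Clstn3 and Celsr3 had the same ranks, 1, 2 and 5. Cdh2, the N-cadherin of synaptic junctions, had 4.75 ± 1.39, and Cdh8 and Cdh9, type II cadherins of neuronal circuits, had 4.88 ± 1.06 and 6.09 ± 1.23. Cdh13, a cadherin held by a lipid anchor rather than a membrane-spanning domain, had 4.19 ± 0.821. Fat1 and Fat3 had 4.13 ± 0.724 and 4.22 ± 0.709, while Fat4 had 0.285 ± 0.0721 and Dchs1, its ligand, had 2.35 ± 0.577. Celsr1 had 0.577 ± 0.235, well under Celsr2 and Celsr3.

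**Figure D1:**
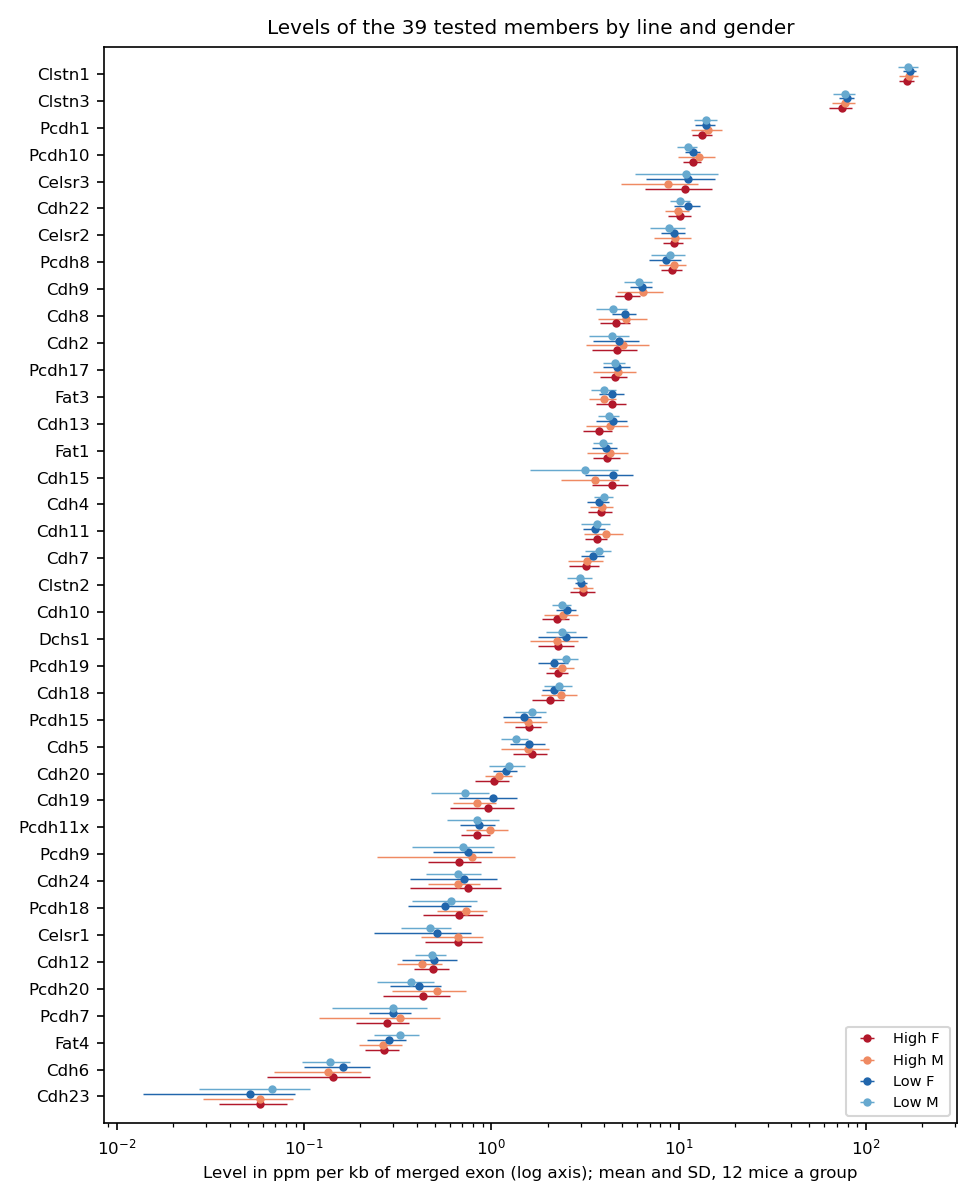
Level of the 39 tested members in the 4 groups, in ppm per kb of merged exon on a log axis; points are means and bars are SD over 12 mice a group. Clstn1 (169) and Clstn3 (77.0) lie above all other members, Cdh23 is lowest, and the 4 groups of most members lie on top of each other.

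In the groups, Clstn1 ran from 8929 to 12591 normalised counts with a median of 11103.5 in High females, from 9576 to 14129 with a median of 10861.5 in High males, from 9533 to 13144 with a median of 11344.5 in Low females and from 8757 to 13584 with a median of 10609 in Low males. Clstn3 ran from 4217 to 6470 (median 5309.5) in High females, 4528 to 6635 (4977.5) in High males, 4531 to 6339 (5601) in Low females and 3947 to 6447 (5493) in Low males. All groups of both genes overlapped nearly completely. Pcdh1, a delta-1 protocadherin, ran from 1276 to 1898 (median 1717) in High females, 1445 to 2525 (1651.5) in High males, 1269 to 2129 (1719) in Low females and 1291 to 2226 (1702.5) in Low males. Pcdh10, a delta-2 protocadherin of striatal axon pathways, ran from 2065 to 3086 (2732) in High females, 2068 to 4710 (2745) in High males, 2253 to 3023 (2672.5) in Low females and 2108 to 3198 (2424) in Low males. The Pcdh10 value of 4710 belonged to High male replicate 1. Celsr3, known for axon tract formation, ran from 860 to 3291 (1603) in High females, 928 to 3175 (1217) in High males, 931 to 3327 (1897.5) in Low females and 980 to 3840 (1606) in Low males. Mice within each group thus differed several-fold in Celsr3, and the groups overlapped over almost the whole range.

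The RefSeq table of promoters (GRCm38.p6) listed 31 of the 46 members. The 250 bases before the listed start are shown for the members of the 2 most positively correlated pairs and the most negatively correlated pair between mice (values further on), because these members varied together or in opposite directions. They are Clstn1 at chr4:149586218-149586467 (plus strand), Clstn3 at chr6:124464785-124465034 (minus strand), Cdh8 at chr8:99416472-99416721 (minus strand), Pcdh10 at chr3:45378148-45378397 (plus strand), Celsr3 at chr9:108825795-108826044 (plus strand) and Pcdh19 at chrX:133688994-133689243 (minus strand). Of the 2 Clstn3 starts in the table the first listed is shown. Each sequence is written 5′ to 3′ on the strand of its gene, with capitals on the GC box GGGCGG and the CCAAT box CCAAT, read on both strands (their reverse complements are CCGCCC and ATTGG).
Clstn1: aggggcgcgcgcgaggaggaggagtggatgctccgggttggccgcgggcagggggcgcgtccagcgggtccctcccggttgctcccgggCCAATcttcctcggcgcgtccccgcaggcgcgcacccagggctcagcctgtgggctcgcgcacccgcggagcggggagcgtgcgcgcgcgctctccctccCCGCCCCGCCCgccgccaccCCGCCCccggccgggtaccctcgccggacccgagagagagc
Clstn3: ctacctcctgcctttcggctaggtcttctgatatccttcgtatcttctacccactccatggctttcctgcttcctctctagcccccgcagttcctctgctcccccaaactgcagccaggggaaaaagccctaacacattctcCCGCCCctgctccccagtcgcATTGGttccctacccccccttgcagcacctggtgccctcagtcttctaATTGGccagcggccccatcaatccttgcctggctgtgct
Cdh8: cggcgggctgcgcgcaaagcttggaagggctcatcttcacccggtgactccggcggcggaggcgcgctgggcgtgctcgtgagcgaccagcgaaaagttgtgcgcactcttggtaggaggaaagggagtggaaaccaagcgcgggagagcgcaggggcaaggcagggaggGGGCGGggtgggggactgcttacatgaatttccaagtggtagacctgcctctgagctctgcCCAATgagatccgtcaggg
Pcdh10: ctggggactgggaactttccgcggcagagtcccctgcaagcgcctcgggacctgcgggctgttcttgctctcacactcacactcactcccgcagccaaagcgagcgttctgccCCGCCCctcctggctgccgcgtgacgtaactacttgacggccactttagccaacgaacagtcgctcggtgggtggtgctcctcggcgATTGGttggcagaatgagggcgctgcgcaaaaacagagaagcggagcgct
Celsr3: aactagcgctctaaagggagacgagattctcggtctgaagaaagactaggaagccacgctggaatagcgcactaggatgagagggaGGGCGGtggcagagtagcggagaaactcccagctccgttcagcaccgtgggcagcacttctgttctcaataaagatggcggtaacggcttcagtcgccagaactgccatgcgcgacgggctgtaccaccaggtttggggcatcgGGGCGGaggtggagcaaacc
Pcdh19: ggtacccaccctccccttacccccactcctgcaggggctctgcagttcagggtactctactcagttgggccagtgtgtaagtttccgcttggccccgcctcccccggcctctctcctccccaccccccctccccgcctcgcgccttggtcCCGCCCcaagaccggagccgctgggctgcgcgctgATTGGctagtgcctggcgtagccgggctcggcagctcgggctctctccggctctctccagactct
The GC box occurred in 32.7% of all 32851 listed promoters of this length and the CCAAT box in 33.8%. Of the 35 listed promoters of members, 12 held the GC box and 17 the CCAAT box. The TATA box TATAAA (12.4% of all promoters) and the cAMP response element TGACGTCA (1.55%) were searched too and occurred in none of the 6 windows shown; motifs could overlap each other. Clstn1 and Celsr3 held 3 and 2 GC boxes, the other 4 held 1 each. Celsr3 held no CCAAT box, Clstn3 held 2, and Clstn1, Cdh8, Pcdh10 and Pcdh19 held 1 each. GC content ran from 58.0% in Celsr3 and 58.4% in Clstn3 to 80.0% in Clstn1, against a median of 52.4% over all promoters. Cdh8 and Pcdh10 held the same number of both motifs, as did Pcdh19, which is not of that pair, and Clstn1 and Clstn3 did not. Whether these motifs relate to the correlations between mice was not tested.

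The first comparison asked how members differ between the High and Low lines, averaged over the genders. None of the 39 tested members was called at an adjusted p under 0.05 (limma), where 0.28% of the 15350 genes tested were called. At an unadjusted p under 0.05 there were 3 members (7.69%) against 9.07% of all genes. The median log2 difference was -0.00298 over the 39 members and -0.00281 over all genes, with 19 members above 0 and 20 below. The 3 members at an unadjusted p under 0.05 were Celsr1, higher in High, and the type II cadherins Cdh7 and Cdh20, lower in High. Cdh7 and Cdh20 both lie on chromosome 1, with lowest listed exon starts (build mm9) at 111878904 and 106665106. Whether they differed separately or as 1 linked stretch of chromosome was not tested. Of the members 48.7% lay above 0, and of all genes 48.5%. Among tested members, those above 0 were 2 of 3 type I, 5 of 13 type II and 1 of 2 other cadherins, 1 of 4 delta-1, 4 of 5 delta-2 and 2 of 2 other protocadherins, 2 of 3 Celsr genes, 1 of 4 Fat and Dachsous genes and 1 of 3 calsyntenins.

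Celsr1, the Celsr family member best known from neural tube closure, ran from 46 to 181 normalised counts (median 95.5) in High females and from 65 to 177 (94.5) in High males. In Low females it ran from 30 to 167 (66) and in Low males from 48 to 120 (69). Both High groups were centred above both Low groups, and all 4 overlapped. Means were 103 ± 35.7 in High and 76.0 ± 33.5 in Low (SD, n = 24 each), and 20 of the 24 mice of the High line lay above the median of the Low line. The log2 difference was 0.44 (SE 0.14, 95% interval 0.15 to 0.72), with p = 0.00392 and adjusted p = 0.245 (limma). It was 0.45 in females and 0.42 in males, or 0.35 (p = 0.0936) in males without High male replicate 1. Averaged over the genders it was 0.40 (p = 0.00744, limma) without that library. The last exon alone gave 0.51 (adjusted p = 0.0864 over 12473 genes) and the exons before it 0.21 (p = 0.235), a split of the value made after seeing the data. Celsr1 also rose with the astrocyte score within groups, by 0.18 per SD of that score (SE 0.07, adjusted p = 0.0291). That score was higher in High than in Low by 0.376 (permutation p = 0.0476, adjusted p = 0.262 over 11 lists). All 9 astrocyte markers were detected, with sums of 26848 to 42573 normalised counts in High females, 27806 to 43904 in High males, 29336 to 39672 in Low females and 29009 to 36709 in Low males. The part of astrocyte markers in the Celsr1 difference was not tested.

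Cdh7, a type II cadherin, ran from 352 to 593 normalised counts (median 460.5) in High females and from 352 to 638 (430.5) in High males. In Low females it ran from 395 to 601 (491) and in Low males from 394 to 670 (539.5). The medians of both Low groups lay above those of both High groups, with wide overlap. The mean was 454 ± 88.3 in High and 511 ± 77.2 in Low, a log2 difference of -0.18 (SE 0.07, p = 0.0142, adjusted p = 0.368, limma), and 6 of the 24 mice of the High line lay above the median of the Low line. Cdh20, another type II cadherin, ran from 33 to 76 (57.5) in High females, 44 to 79 (62) in High males, 50 to 84 (66) in Low females and 41 to 100 (72) in Low males. Its mean was 60.2 ± 11.0 in High and 68.8 ± 12.7 in Low, a log2 difference of -0.18 (SE 0.07, p = 0.0231, adjusted p = 0.434, limma). For Cdh7 the difference was -0.22 (p = 0.00386) on the exons before the last and -0.09 (p = 0.268) on the last exon. All 10 oligodendrocyte markers were detected, with sums of 10964 to 25553 normalised counts in High females, 9474 to 22121 in High males, 16369 to 25922 in Low females and 13970 to 25819 in Low males. Their score was lower in High (permutation p = 0.0187, adjusted p = 0.205), and Cdh7 and Cdh20 had slopes of 0.02 and 0.07 per SD on it, neither of which passed the test (adjusted p = 0.765 and 0.305, limma). With the pyramidal and oligodendrocyte scores as covariates, the line difference was -0.16 (p = 0.042) for Cdh7 and -0.13 (p = 0.11) for Cdh20, and 8 members rather than 3 had an unadjusted p under 0.05. Over all genes that share rose likewise, from 9.07% to 18.2%. None of the members was called in that fit, where 0.964% of all genes were.

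**Figure D2:**
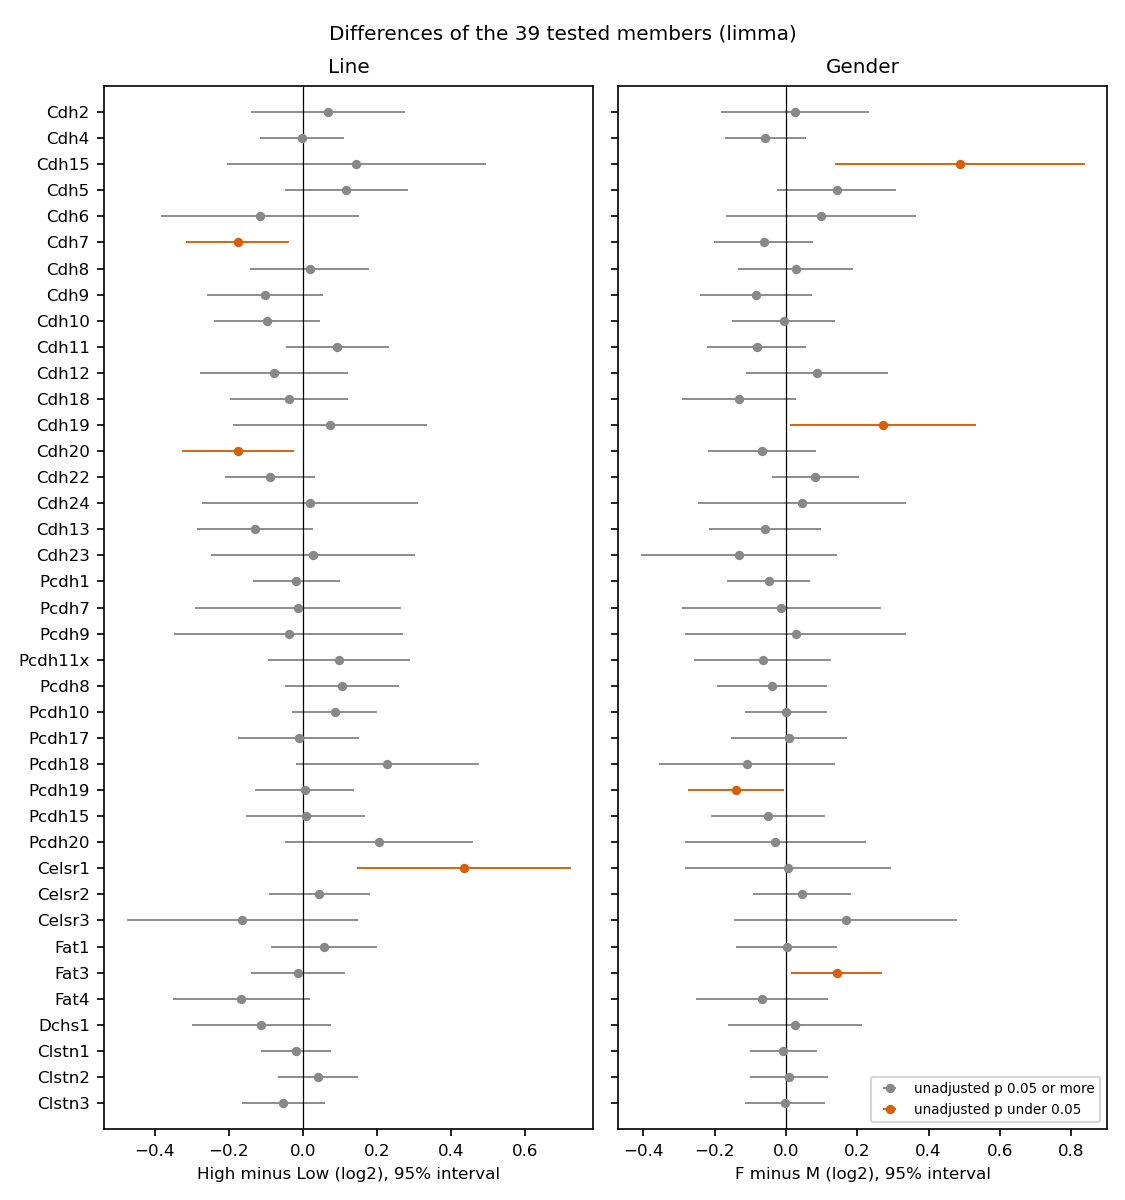
Differences of the 39 tested members on the log2 scale for the line (left, High minus Low) and gender (right, female minus male) with 95% intervals from limma; orange points have an unadjusted p under 0.05. The intervals of 36 and 35 members cross 0, and the orange points are Cdh7, Cdh20 and Celsr1 on the left and Cdh15, Cdh19, Pcdh19 and Fat3 on the right.

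Between females and males, averaged over the lines, none of the 39 members was called (0.0782% of all genes were called), and 4 members (10.3%) had an unadjusted p under 0.05 against 4.21% of all genes. Of these, 3 had the higher mean in females and 1, the X-linked Pcdh19, in males. Their adjusted p was 0.982 in each case (limma).

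Cdh15, the M-cadherin of muscle and of cerebellar granule cells, ran from 126 to 302 normalised counts (median 206) in High females and from 90 to 269 (221.5) in Low females. In High males it ran from 35 to 255 (166.5) and in Low males from 26 to 259 (160). The female medians were higher, and the male groups reached lower. Means were 202 ± 50.5 in females and 155 ± 64.8 in males (SD, n = 24 each), and 19 of 24 females exceeded the male median. The log2 difference was 0.49 (SE 0.17, p = 0.00716, adjusted p = 0.982, limma).

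Cdh19, a type II cadherin of glial and Schwann cell precursors, ran from 29 to 110 (57.5) in High females, 16 to 92 (67.5) in Low females, 29 to 77 (51) in High males and 23 to 74 (41) in Low males, a difference of 0.27 (SE 0.13, p = 0.0414, limma). Fat3, a giant cadherin that shapes neuronal dendrites, ran from 1028 to 1699 (1251.5) in High females, 984 to 1722 (1357) in Low females, 916 to 1589 (1215) in High males and 968 to 1503 (1178) in Low males, a difference of 0.14 (SE 0.06, p = 0.0301, limma). Pcdh19, a delta-2 protocadherin whose mutation causes an epilepsy in females, ran from 260 to 440 (338.5) in High females, 234 to 423 (309.5) in Low females, 231 to 425 (348.5) in High males and 292 to 458 (376.5) in Low males, a difference of -0.14 (SE 0.07, p = 0.0397, limma). In all 3 genes the groups overlapped over most of their range. Without High male replicate 1 Cdh19 and Pcdh19 had p = 0.0525 and 0.0619. With the pyramidal and oligodendrocyte scores as covariates the Cdh19 difference was 0.23 (p = 0.0602). The last exon alone gave 0.32 (p = 0.00736) for Cdh19 and 0.10 (p = 0.0664) for Fat3, and the exons before it 0.13 (p = 0.332) and 0.29 (p = 0.0253). On the exons before the last, which hold little of the Pcdh19 value (the last exon holds 96.5%), the Pcdh19 difference was 0.0126 (p = 0.926), of the opposite sign. The leptomeningeal score was higher in females by 0.483 (permutation p = 0.00624, adjusted p = 0.0686). Of its 8 markers 7 were detected, with sums of 582 to 1014 normalised counts in High females, 453 to 975 in Low females, 392 to 787 in High males and 478 to 834 in Low males. Cdh15, Cdh19, Fat3 and Pcdh19 had slopes of -0.11, 0.01, 0.00 and 0.04 per SD on that score, with adjusted p = 1.00 for each (limma).

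**Figure D3:**
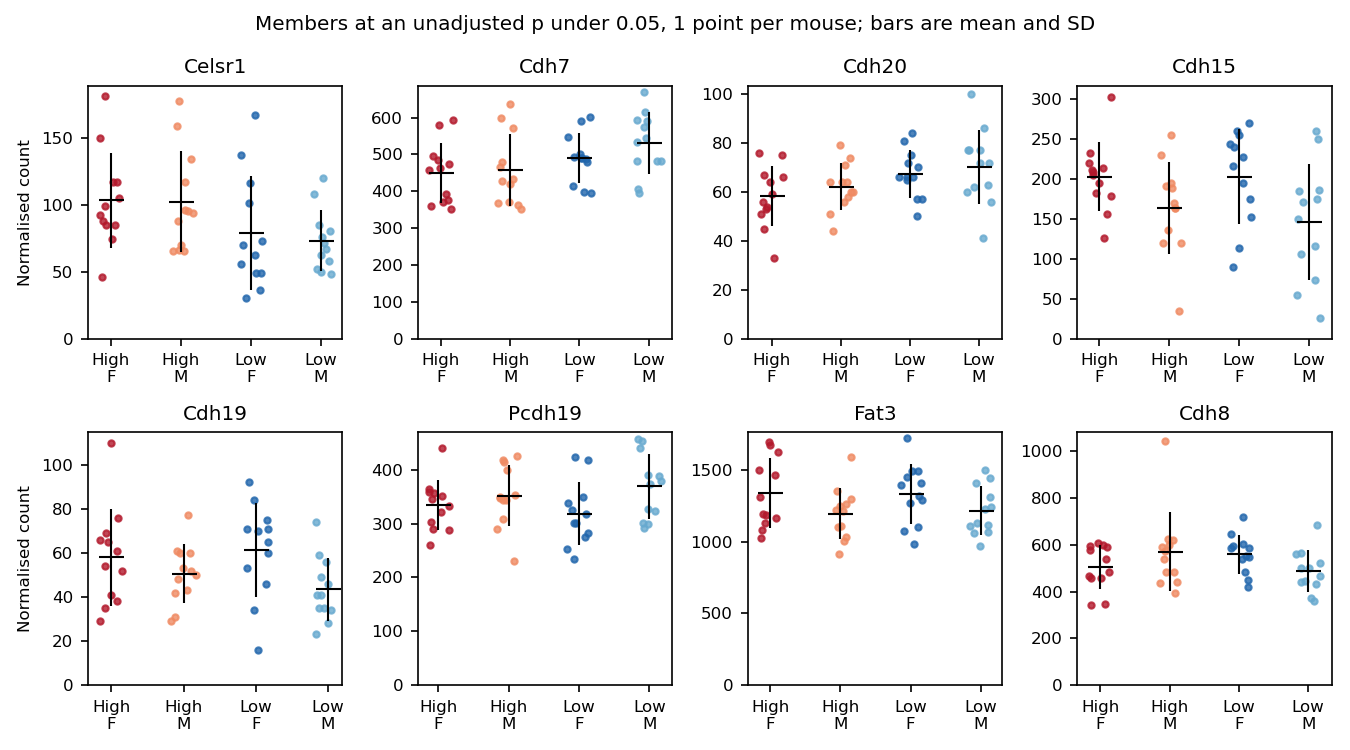
Normalised counts of 8 members in each mouse, by group (High and Low, females F and males M); 1 point per mouse, black bars mean and SD over 12 mice. Groups overlap in every panel, the High groups are centred higher for Celsr1 and lower for Cdh7 and Cdh20, and 1 High male reached 1046 for Cdh8.

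The line difference in females was then set against that in males. No member was called for this interaction (0% of all genes), and 1 of 39 had an unadjusted p under 0.05 against 2.4% of all genes. This was Cdh8, a type II cadherin. It ran from 343 to 609 normalised counts (median 510) in High females and from 419 to 721 (568.5) in Low females, and from 393 to 1046 (556) in High males and 359 to 685 (484.5) in Low males. High minus Low in females less the same in males was -0.35 (SE 0.16, p = 0.0318, adjusted p = 1.00, limma). It was -0.27 (p = 0.0629) without High male replicate 1, whose 1046 was the highest value, -0.30 (p = 0.061) with the pyramidal and oligodendrocyte scores as covariates and -0.27 (p = 0.0652) with the last-exon share as one. On the last exon alone, which holds 6.14% of the Cdh8 value, it was 0.0209 (p = 0.924), and on the other exons -0.37 (p = 0.0351). Within females, Cdh9, Cdh13 and Celsr1 had an unadjusted p under 0.05 for the line, against 4.68% of all genes, and within males Celsr1, Cdh7, Pcdh10, Pcdh20 and Fat4, against 6.93%. None of these was called, where 0.0261% of all genes were called in females and 0% in males. Without High male replicate 1, the male difference was 0.0997 (p = 0.156) for Pcdh10, down from 0.17, and 0.28 (p = 0.114) for Pcdh20, down from 0.37. Cdh7 and Fat4 then still had an unadjusted p under 0.05 in males, against 5.57% of all genes, and Celsr1, Pcdh10 and Pcdh20 did not.

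The stock is outbred, and the spread between mice was compared as well. No member was called for a difference in spread between the lines or the genders (limma on absolute deviations from the group median), where 0.0586% and 0% of all genes were called. No member had an unadjusted p under 0.05 for the line (3.97% of all genes), with 28 of 39 more variable in High, against 52.7% of all genes. Without High male replicate 1 this was 23 of 39, against 46.7% of all genes, again with none at that p (3.75% of all genes). For gender 4 had one (3.87% of all genes), namely Cdh9, Cdh15, Pcdh7 and Pcdh9, each more variable in males. Of all genes 34.4% were more variable in females, and of the members 13 of 39. Without High male replicate 1, Pcdh9 had p = 0.108 and the other 3 still had a p under 0.05 (3.02% of all genes), none of them called (limma). For Cdh15 the mean absolute deviation was 0.28 in females and 0.53 in males on the log2 scale, with adjusted p = 0.985 (limma).

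The residual SD within groups had a median of 0.29 over the tested members and 0.23 over all genes tested, and 31 of 39 members lay above the latter. The largest values were those of Cdh15 (0.63), Celsr3 (0.57) and Pcdh9 (0.55). Celsr3 exceeded 99.6% of genes of similar level (within 0.5 on the log2 scale), Cdh15 97.3% and Pcdh9 88.7%. Pcdh9, a delta-1 protocadherin, ran from 36 to 104 (median 58) in High females, 30 to 220 (63.5) in High males, 44 to 120 (66.5) in Low females and 32 to 128 (57.5) in Low males. Its 220 was that of High male replicate 1, and its residual SD without that library was 0.49. Clstn1 had the smallest residual SD of the tested members, 0.16. Without a stated strand setting, reads of overlapping genes cannot be told apart: in GENCODE M21 an opposite-strand transcript, 4932441J04Rik, shares 21.1% of the exon bases of Pcdh7, and for 10 other members another gene shares 0.297% to 9.61%.

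Exon values gave a second view. Of the 38 members testable for exon usage, none was called for the line (0.51% of 14702 genes), the gender (0.17%) or the interaction (0.184%). At an unadjusted p under 0.05 there were 1, 2 and 3 members, against 5.32%, 3.96% and 5.49% of all genes. The smallest p for gender was that of Clstn3 (adjusted p = 0.21, limma diffSplice), in the listed exon 19 of 21, which held 0.074% of the Clstn3 value and had means of 4.92 ± 3.32 normalised counts in females and 3.04 ± 3.03 in males.

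Values, not divided by exon length, lay largely in the last listed exon. That exon held a median of 62.1% of the value of 37 members with 4 or more exons, against 55.3% over 12347 genes. The exceptions included Pcdh7 and Pcdh9, where the first exon held 61.3% and 60.7%, Pcdh10, where the exon before the last held 61.0%, and Cdh8, where it held 49.3%. The last exon and the other exons of a gene did not always vary together. In 30 members with both parts at a mean of 14 or more, the spread within groups was larger in the other exons in 26. The median SD was 0.25 for the last exon and 0.48 for the others (log2). No such count or SD was taken over all genes, so this is not shown to be particular to the members. For Clstn1 the SD was 0.10 in the last exon, which ran from 6209 to 8443, and 0.49 in the other exons, which ran from 1437 to 7920. The r between both parts was -0.12 over the 48 mice. In Celsr3 both parts varied widely (0.50 and 0.65) and together (r = 0.89), and likewise in Cdh15 (0.62 and 0.62, r = 0.84). These correlations are descriptions over the same 48 libraries.

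The line, gender and interaction fits were repeated on the last exon alone, which left 36 members, and on the exons before it, which left 34. No member was called in any of these 6 fits. On the last exon 0.136%, 0.0882% and 0% of 12473 genes were called for line, gender and interaction, and on the other exons 0.0332%, 0.0498% and 0% of 12041. At an unadjusted p under 0.05 the last exon had 5 members for the line (8.23% of all genes), 3 for gender (3.73%) and 0 for the interaction (2.53%). The other exons had 1, 2 and 1 members (5.3%, 2.68% and 2.23% of all genes). Cdh15 was the only member below that p for gender in both parts, with differences of 0.46 in the last exon and 0.47 in the others. For the line, no member was below it in both. In the last exon these were Celsr1, Pcdh10 (0.17, p = 0.0112), Cdh22 (-0.12, p = 0.0411), Cdh5 (0.14, p = 0.0434) and Pcdh18 (0.24, p = 0.0441), and in the other exons Cdh7.

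**Figure D4:**
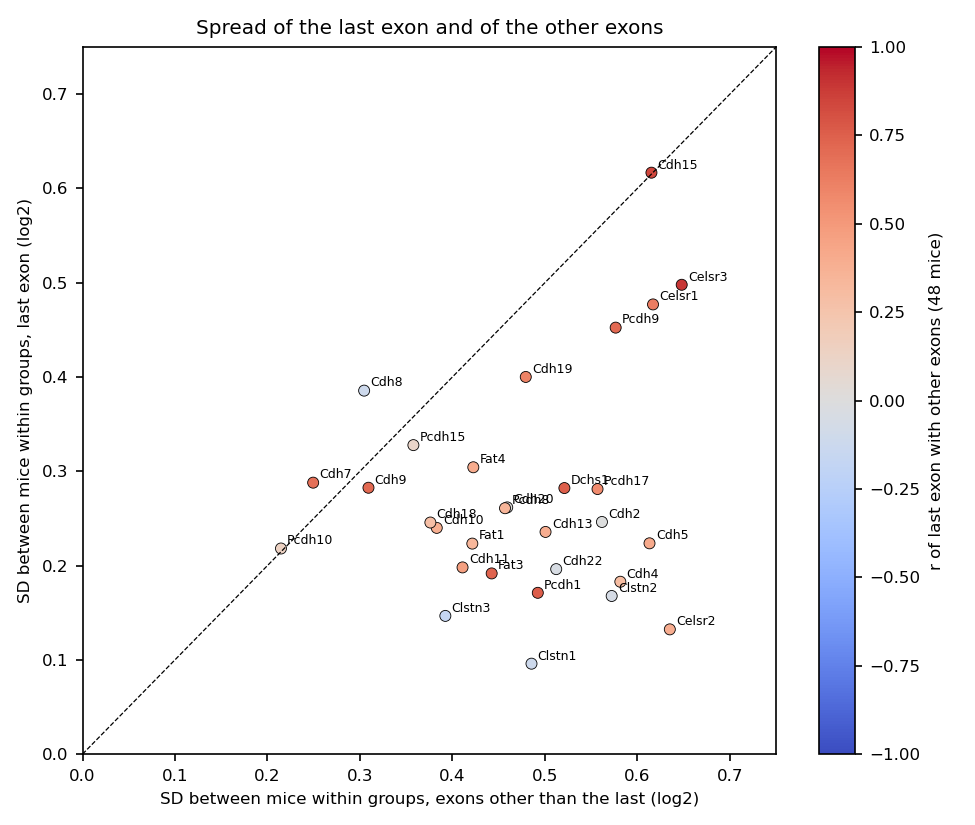
SD between mice within groups (log2) of the other exons (horizontal) against the last exon (vertical) for the 30 members with both parts at a mean of 14 normalised counts or more; the dashed line marks equality and colour gives r of both parts over 48 mice. In 26 members the other exons vary more, a count not taken over all genes. Celsr3 and Cdh15 are high and strongly correlated in both, and Clstn1 varies little in the last exon.

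Correlations between members over the mice were taken next. After removal of the group means, 212 of the 741 pairs of tested members were correlated at an adjusted p under 0.05 (permutation of mice within groups), 165 positively and 47 negatively. After removal of the last-exon share as well, 129 pairs were called. No share of all gene pairs was taken for either count. Before that removal, the absolute r reached 0.5 in 12.7% of the 741 pairs. Of all pairs of tested genes 7.89% reached it (9299108 of 117803575). The median r was 0.11 over the pairs of members and 0.003 over all pairs. Members and all genes were not compared in this way after the removal. Genes that share libraries and depth are not independent of each other. Celsr3 was in 2 of the 3 most negative pairs. In the clustered plot of r, members lay in blocks seen after the values were known. One lay around Cdh2, Cdh8, Cdh11, Pcdh7, Pcdh9 and Pcdh10, and one held Clstn1, Clstn3, Pcdh1 and Celsr2. Another held Cdh10, Cdh12, Cdh18 and Pcdh17, and a further one Celsr3, Dchs1, Cdh24 and Fat3. Cdh10, Cdh12 and Cdh18 lie on chromosome 15, with lowest listed exon starts (build mm9) at 18748702, 21041207 and 22478777. Cdh8 and Cdh11 lie on chromosome 8, at 101548371 and 105156895. Pcdh17 lies on chromosome 14, and the members of the Clstn1 block lie on different chromosomes. The part of linked inheritance in these correlations was not tested.

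The strongest positive correlation was that of Clstn1 and Clstn3, r = 0.87 and rho = 0.86 over 48 mice, 0.84 without the 2 mice farthest from the median of Clstn1. Cdh8 and Pcdh10 followed with r = 0.86 and rho = 0.78 (0.80 without the 2 farthest mice), both highest in High male replicate 1 and r = 0.80 without it. Pcdh7 and Pcdh9 had r = 0.81 and rho = 0.74 (0.74 without the 2 farthest mice, 0.76 without High male replicate 1), and Cdh8 and Cdh11 had r = 0.81 and rho = 0.68 (0.74 and 0.75). Pcdh1 and Clstn1 had r = 0.79 and rho = 0.74 (0.74 and 0.75). Each of these 5 had a permutation p of 1e-05, the smallest that 100000 permutations can give, and an adjusted p of 0.000212. Opposite to these, Pcdh19 and Celsr3 had r = -0.70 and rho = -0.69 (-0.68 without the 2 farthest mice; permutation p = 1e-05), and -0.70 without High male replicate 1. Pcdh15 and Celsr2 had r = -0.59 and rho = -0.63 (-0.57; permutation p = 6e-05), and Cdh13 and Celsr3 had r = -0.57 and rho = -0.49 (-0.57; permutation p = 3e-05). The largest permutation p of rho among these 8 pairs was 0.00064, that of Cdh13 and Celsr3. Celsr3 was positively correlated with the other members of its block: r was 0.72 with Dchs1, 0.68 with Cdh24 and 0.51 with Fat3. Several of these shrank once the pooled last-exon share was also removed, a check added after seeing the data. Pcdh1 and Clstn1 then had r = 0.23, Pcdh1 and Celsr2 0.067 and Pcdh15 and Celsr2 -0.21, while Clstn1 and Clstn3 kept r = 0.69, Cdh8 and Pcdh10 0.80, Cdh8 and Cdh11 0.77 and Pcdh19 and Celsr3 -0.70.

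**Figure D5:**
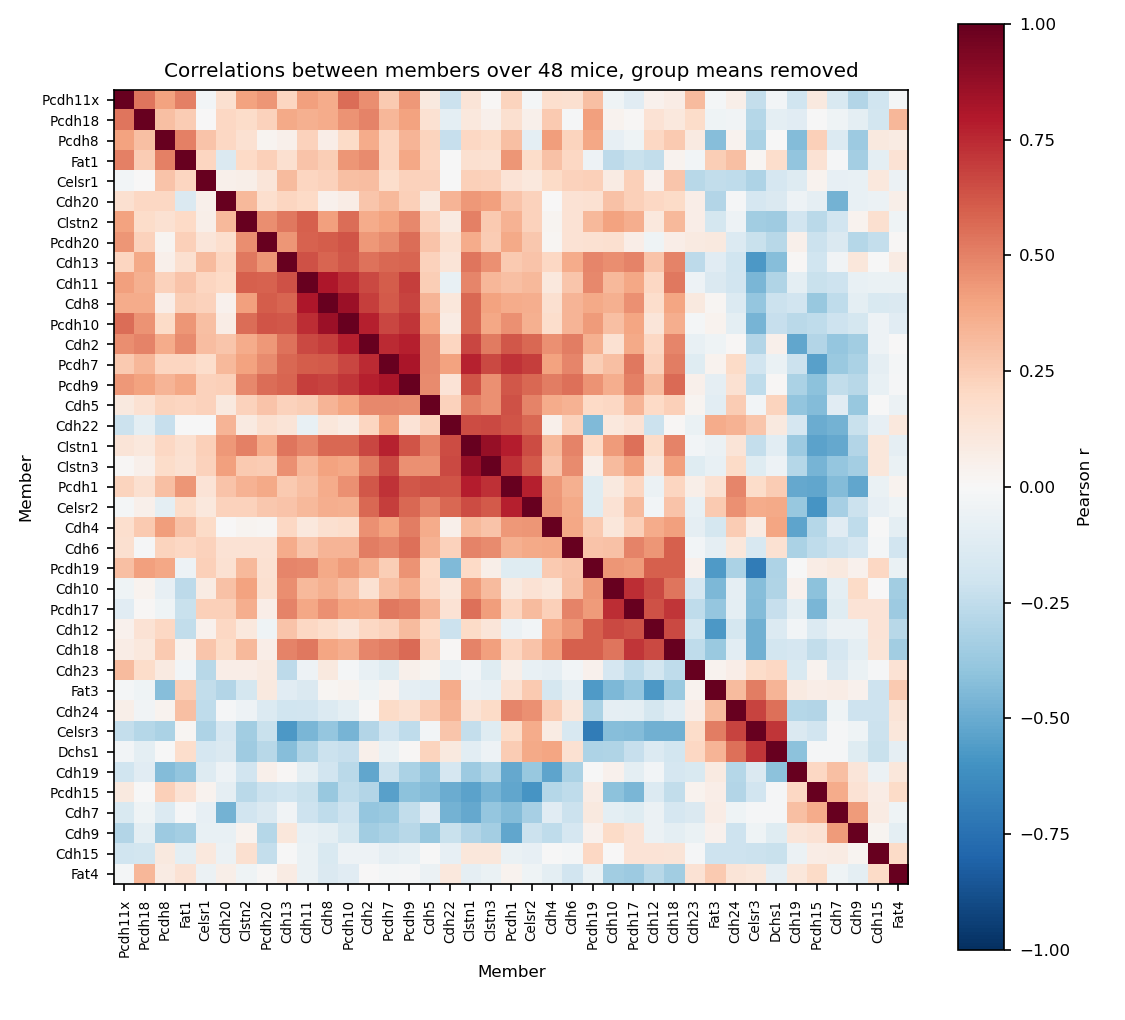
Pearson r between all 39 tested members over 48 mice after removal of group means, ordered by average-linkage clustering of 1 - r; red is positive and blue negative. Blocks of red hold Cdh8, Pcdh10 and Cdh11, then Clstn1, Clstn3 and Pcdh1; Celsr3 forms a small block with Dchs1 and Cdh24 and is blue with Pcdh19 and Cdh13.

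The pooled last-exon share of a library, a measure of how far reads concentrate at the 3′ end, was 54.7 ± 2.57% in High and 54.3 ± 2.36% in Low (SD, n = 24 each) and did not separate the groups. Within groups, 22 of 39 members were called for a slope on it, 4 rising (Pcdh15, Cdh19, Cdh7 and Cdh9) and 18 falling, against 39.8% of all genes (18% rising, 21.7% falling). Pcdh1 changed by -0.18 per SD of the share (SE 0.01), Celsr2 by -0.20 (SE 0.02) and Pcdh7 by -0.39 (SE 0.04), each lower where more of the value lay in last exons. Without High male replicate 1, 18 members were called, 4 rising and 14 falling, against 34.1% of all genes; Cdh8, Cdh11, Cdh13, Pcdh17 and Fat1 no longer passed, and Dchs1 did.

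Markers of other cell types varied between mice too. On the astrocyte score, 11 of 39 members were called within groups, 7 rising and 4 falling, against 40.7% of all genes (23.3% rising, 17.4% falling). Celsr3 fell by 0.45 on the log2 scale per SD of the score (SE 0.05, adjusted p = 9.26e-10, limma), Dchs1 by 0.21 and Cdh24 by 0.26. Pcdh19, Pcdh10 and Cdh13 rose with it by 0.13, 0.08 and 0.10. Without the 2 libraries farthest from the median astrocyte score, 8 members were called, 4 rising and 4 falling (limma). No share over all genes was taken for this repeat or for the like repeats on the other scores. Pcdh10 (adjusted p = 0.0885), Cdh13 (0.0609), Cdh11 (0.144) and Cdh18 (0.0852) no longer passed, and Cdh12 did (0.0377). On the ependymal and choroid plexus score the same Celsr3, Dchs1 and Cdh24 fell, by 0.35, 0.17 and 0.24, and Pcdh19 rose by 0.09, against 27.7% of all genes called. This score had r = 0.54 with the astrocyte score within groups, so its slopes are not independent of the astrocyte slopes. Without its 2 farthest libraries these 4 still passed, and Pcdh15 (rising, adjusted p = 0.0348) and Fat3 (falling, 0.0436) did too (limma). Of its 8 markers 6 were detected; the choroid plexus markers Ttr and Folr1 were near 0, with means of 0.833 and 1.92 normalised counts. The part of these cell types in the opposite courses of Celsr3 and Pcdh19 was not tested.

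On the pyramidal score, 8 members were called, 7 rising and 1 falling, against 19.2% of all genes (9.11% rising, 10% falling): Pcdh1, Celsr2, Celsr3, Cdh24, Fat3, Fat1 and Pcdh20 rose and Pcdh17 fell. Only 3 of the 8 pyramidal markers were detected, and the summed level reached 6194 and 3356 normalised counts in a Low male and in High male replicate 1, against group medians of 601 to 741. Without the 2 libraries farthest from the median score, Pcdh1 changed by 0.05 (adjusted p = 0.222), Celsr2 by 0.02 (adjusted p = 0.608), Fat1 by 0.09 (adjusted p = 0.0563) and Pcdh20 by 0.09 (adjusted p = 0.303), none past the threshold, while Celsr3, Cdh24, Fat3 and Pcdh17 still passed it (limma). Dchs1 (rising, adjusted p = 0.0228), Cdh10 (0.0491), Cdh12 (0.0413) and Cdh18 (0.0228; these 3 falling) then passed too, which made 4 rising and 4 falling. Within groups the pyramidal score had r = -0.41 with the last-exon share and -0.43 with the astrocyte score, so these slopes are not independent of each other. Cdh5, the VE-cadherin of endothelial junctions, rose with the endothelial and mural score by 0.18 per SD (SE 0.03, adjusted p = 0.00916, limma; 0.0651% of all genes were called), and by 0.17 with adjusted p = 0.0505 without the 2 farthest libraries. Pcdh8 rose with the septal and diencephalic score by 0.15 per SD (SE 0.03, adjusted p = 0.0276, limma; 0.45% of all genes), and by 0.13 with adjusted p = 0.0805 without the 2 farthest libraries. No member was called on the oligodendrocyte (0.743% of all genes) or leptomeningeal score (0.0521%).

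The partners of these proteins were followed as a list of 37 genes: the catenins and their relatives, the processing enzymes, the planar cell polarity core, the actin regulators of the WAVE complex, calsyntenin cargo adaptors and the hair bundle complex of Cdh23 and Pcdh15. Of these 35 were tested and none was called for line, gender or interaction. At an unadjusted p under 0.05 there were 3 for the line: Vangl1, a planar cell polarity gene, had 22.8 ± 5.57 normalised counts in High and 28.6 ± 7.46 in Low, a log2 difference of -0.25. Psen2, a subunit of gamma-secretase, differed by 0.13 and Prickle2, another planar cell polarity gene, by 0.09, with adjusted p of 0.297, 0.436 and 0.543 for the 3 genes (limma). There was none for gender (4.21% of all genes) and 1, Fjx1, for the interaction (2.4%). The 3 for the line were 8.57% of the partners tested, against 9.07% of all genes.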

How the data were processed

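Poly(A) RNA-seq of laser-microdissected nucleus accumbens shell was measured in 48 mice. The authors deposited a gene table and an exon table whose values are a score: read counts that were normalised and rounded to whole numbers, by a method not given in the sources used here, so that no count model was fitted. Per the submitters' processing notes, the tools included edgeR 3.4.2, STAR 2.4.0, FastQC, CASAVA and R 3.0.2, and the build was mm9; their roles were not stated. The counter and strand setting were not given either. Depth before normalisation is unknown, so no counting interval is given.

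Symbols came from GENCODE M21 by gene identifier. The 15350 genes that reached 1 ppm in 12 or more libraries were tested with limma 3.58.1 (R 4.3.3) on log2(value + 0.5 ppm), with 1 mean per group and p-values adjusted by Benjamini-Hochberg over all genes tested; differences on this scale understate those of low genes. An adjusted p under 0.05 is a call. Exon usage used diffSplice on exons at 0.1 ppm or more with 0.05 ppm added. Marker scores are group-centred means of z-scored log2 values over a list, scaled to an SD of 1; as covariates and in tests of their own line and gender differences they were not centred by group, and those tests ran with 100000 permutations within the other factor. Pairs of members were tested with 100000 permutations within groups. Tests are two-sided. The line fit, exon usage and the pair correlations were tested on simulated data. Lengths are merged GENCODE exons (GRCm38), since the exon table lists starts only; no position was converted. The pooled last-exon share is the percent of the value of multi-exon tested genes that lies in the last listed exon. It, the fits by exon part, and the repeats of the spread, pair and last-exon tests without High male replicate 1 were chosen after seeing the data.

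The members and lists were chosen with earlier results of these data known. Members given in full were those at an unadjusted p under 0.05 for line, gender or interaction, the 5 highest per kb, the 3 largest residual SDs, at most 3 called members per score and direction, and the 5 highest and 3 lowest correlations; others named were chosen after their values were seen. Microglia, oligodendrocyte precursor and blood marker lists showed no line or gender difference at an unadjusted p under 0.05. The closest pair of libraries differed by 9.88 times what counting noise would give on this scale, so none was taken as deposited more than once. Figures were drawn with matplotlib 3.10.9.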

Additional observations from a re-analysis of the deposited data

How the results depend on the processing

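No member was called for line, gender or interaction under any alternative run (pseudocount, filter, scaling, library weights, leaving out High male replicate 1, marker scores or last-exon share as covariates, fits by exon part). The count at an unadjusted p under 0.05 for the line, 3 as reported, was 4 without High male replicate 1 and 5 with library weights. It was 8 with the pyramidal and oligodendrocyte scores as covariates and 6 with the last-exon share as one. On the last exon alone it was 5, and on the other exons 1. Over all genes the share at that p was 9.07% as reported, 18.2% with those scores, 8.23% on the last exon and 5.3% on the other exons. That share was not taken without High male replicate 1, with library weights or with the last-exon share as a covariate, so these counts have no background. For gender, 4 as reported, the count was 2 on the other exons and 3 to 5 under every other alternative. For the interaction, 1 as reported, it was 0 without High male replicate 1, 0 with those scores and 0 on the last exon alone. For exon usage it fell from 1 to 0 for the line with an exon filter of 0.5 ppm and from 2 to 1 for gender with 0.2 ppm added. Slopes on the endothelial and mural and on the septal and diencephalic score each went from 1 called member to 0 without the 2 farthest libraries. Of 741 pairs, 129 were called after removal of the last-exon share and 188 without High male replicate 1, against 212. The direction reversed for Pcdh19 between genders on the exons before the last (0.0126) and for the Cdh8 interaction on the last exon alone (0.0209). The cause of these changes was not tested, and the fits by exon part held fewer genes. Over all genes the line gave 43 calls as reported, and 80 with library weights, 77 with the last-exon share, 148 with marker scores, 17 on the last exon and 4 on the other exons. Lengths from overlapping listed exons were not run, since the exon table gives no ends; the length of the longest transcript gave 177 ppm per kb for Clstn1, against 169. Of 95 values of single members under these alternatives, 78 kept their direction and their side of an unadjusted p of 0.05, 15 no longer passed it and 2 reversed. No paired analysis was possible because the labels carry no replicate numbers or shared litters.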
